A study of Homo sapiens with 8 samples.

Results

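Alcohol dehydrogenases (ADH), aldehyde dehydrogenases (ALDH) and flavin-containing monooxygenases (FMO) were described in A549 cells, an established line of human lung adenocarcinoma. The members were the genes whose platform symbol begins with ADH, ALDH or FMO followed by a digit. Of 19775 genes with 1 probe set each, 34 met this rule: 7 ADH, 21 ALDH and 6 FMO genes. A gene with several probe sets was represented by the probe set whose average across the 8 arrays was greatest. In all, 65 probe sets matched the members, and 19 members had more than 1. The 8 arrays fall into 4 groups of 2. The 3D treated group held spheroids grown in hanging drops and given 10 ng/ml TNF together with 2 ng/ml TGFβ for 2 rounds of 48 h, and the 3D control group held spheroids without the 2 cytokines. The 2D treated group held monolayers under the same cytokines, and the 2D control group held monolayers without them. All groups came from the same line, so each describes 1 cancer line and not lung tissue. The series design calls the 2 arrays of a group biological replicates and the study's methods call them technical duplicates, so p-values measure the spread between these arrays, which may be technical. Precision is limited by having 2 arrays in each group.

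Alcohol dehydrogenases oxidise alcohols, among them ethanol and retinol, to aldehydes or ketones, and aldehyde dehydrogenases oxidise aldehydes to acids, both with a nicotinamide cofactor. The ALDH family serves several pathways: retinoic acid synthesis, removal of aldehydes that form from lipids, and steps in the breakdown of proline, GABA, valine and lysine. Flavin-containing monooxygenases add oxygen to nitrogen or sulphur atoms of drugs and other foreign compounds. In airway and lung cells these enzymes are known for the handling of alcohols, smoke aldehydes and drugs.

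Levels are log2 GCRMA values, in which the lowest value on every array was 2.23 and the array medians lay between 2.43 and 2.5. Of the 34 members, 21 exceeded the array median by more than 1 log2 unit on at least 2 arrays (4 ADH, 16 ALDH and 1 FMO), and 13 did not. All 10 epithelial keratin and junction genes passed the same filter, while NKX2-1, SFTPC, SFTPD and NAPSA among 7 genes of alveolar type II cells, PTPRC and CD3E among 6 leukocyte genes, and ALB and APOB among 7 hepatocyte genes did not. The summed linear level of the 10 epithelial genes was 34274.8 to 35493.8 in 3D treated and 49406.9 to 52287.1 in 3D control, and 52143.1 to 56617.3 in 2D treated and 64130.3 to 65772.9 in 2D control. The brightest members, KRT18 and KRT8, carry most of this sum, and not all members moved with it: in spheroids with the cytokines 5 of the 10 were called lower, 1 higher (CLDN4, 1.77, adjusted p = 0.036) and 4 did not pass, among them KRT7 (0.91, adjusted p = 0.0592) and TJP1 (0.21, adjusted p = 0.575). Their part in the changes of the members was not tested. The leukocyte sum was 123.1 to 140.3 in 3D treated and 746.3 to 793.5 in 3D control, with CD14 (-2.86, adjusted p = 0.0477) and LYZ (-2.77, adjusted p = 0.138) as the 2 of its 6 genes above the filter. The hepatocyte sum was 12223 to 13366.2 in 3D treated and 6905.6 to 7926.2 in 3D control, with 5 of 7 genes above the filter. This sum is mostly SERPINA1, whose difference did not pass (0.79, adjusted p = 0.423), and of the 7 hepatocyte genes none was called higher and 1, CYP3A4, was called lower (-0.70, adjusted p = 0.00187, median of the list 0.02). Endothelial (1 of 6 genes above the filter) and fibroblast (1 of 8) sums stayed at or below 135.7 on all arrays.

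In spheroids, 14 of the 34 members fell with TNF + TGFβ and none rose. They were 3 ADH genes, 10 ALDH genes and FMO5, with differences of -0.62 to -4.66 on the log2 scale. This is 41.2% of the members, against 10.8% of all 19775 genes called lower and 5.53% called higher in the same comparison (limma, Benjamini-Hochberg adjusted p under 0.05). The median difference was -0.23 over the 34 members and 0 over all genes. In monolayers 0 members passed, against 0.0759% of all genes called lower and 0.121% called higher. At an unadjusted p under 0.05, 6 of 34 members (17.6%) were lower in 2D treated, against 10.7% of all genes in either direction. Fewer cells that carry a transcript and less transcript per cell cannot be told apart in these bulk samples. Fits that left out 1 array kept 1 array in its group, and that array was taken to vary as the other groups do, so calls gained in such fits have no replicate of their own in that group. Without 3D control replicate 1 the count of members called lower in spheroids was 4, and without 3D control replicate 2 it was 6, with near-background members (FMO4, and ADH7 in the second case) among them. It was 9 without either 2D treated replicate and 10 without either 2D control replicate. Without 3D treated replicate 1, 10 members were called lower and 2 near-background ones higher (ADH1B by 0.06 and FMO2 by 0.64), and without 3D treated replicate 2, 9 were called lower and 2 near-background ones higher (ALDH1A2-AS1 by 0.10 and ALDH1L1-AS2 by 0.11).

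**Figure D1:**
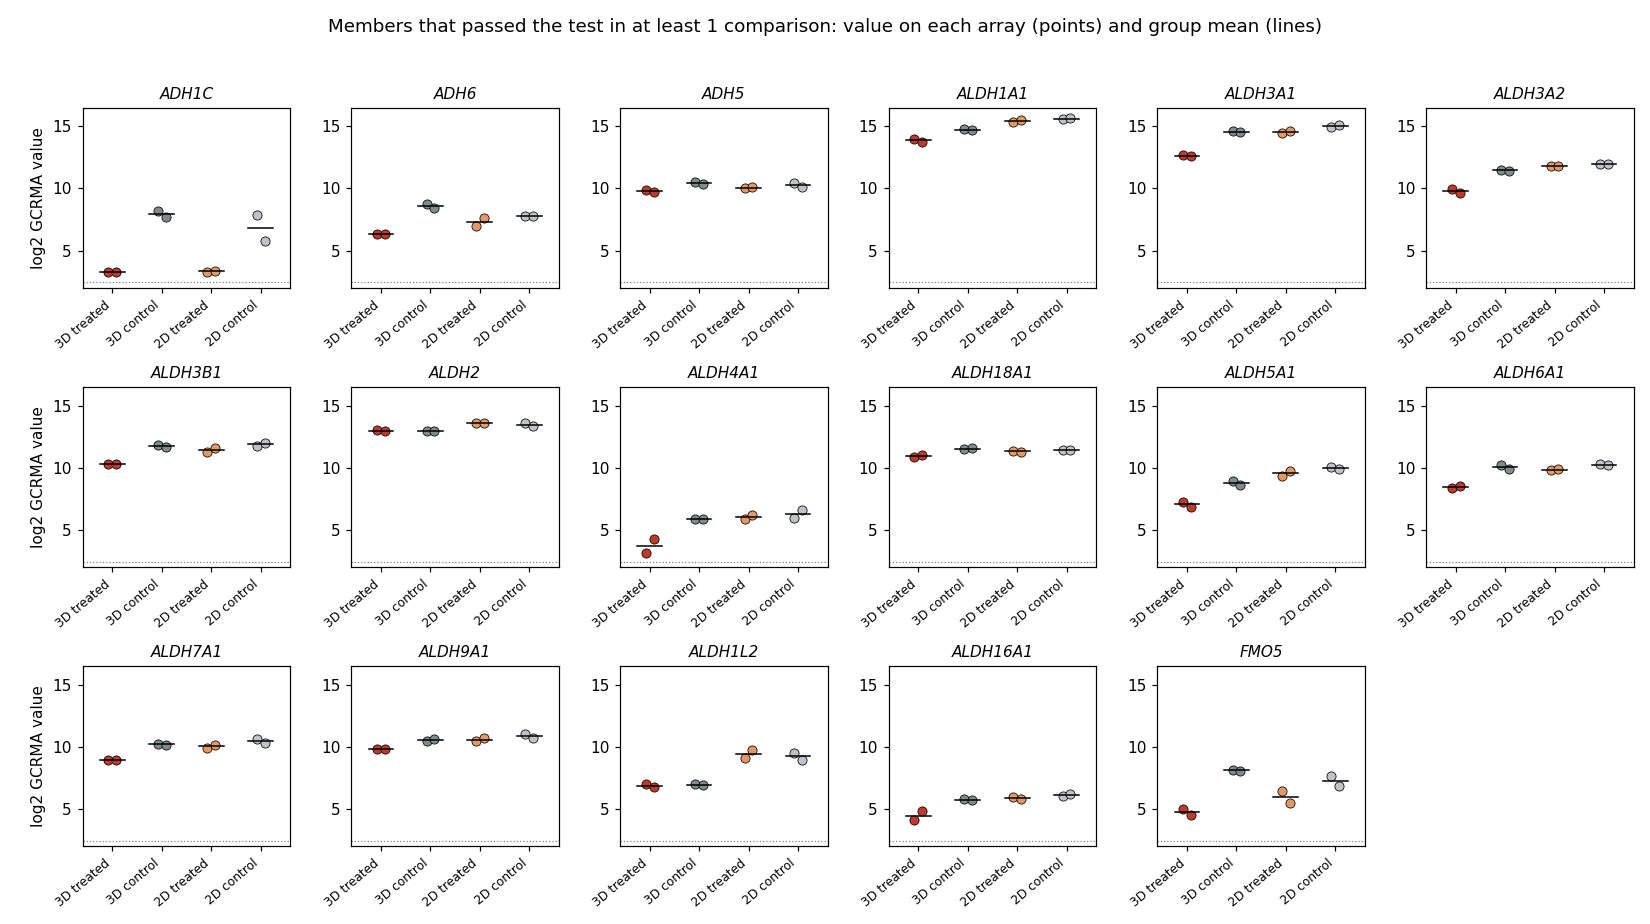
Log2 GCRMA value (vertical axis) on each array (points) with the group mean (line) for the 17 members that passed the test in at least 1 comparison, in the order 3D treated, 3D control, 2D treated, 2D control. The dotted line marks the median of the array medians. ADH1C lay at 3.31 on both 3D treated arrays and at 7.71 and 8.21 on the 3D control arrays, while ALDH2 spanned only 12.91 to 13.62 over all arrays.

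Among the alcohol dehydrogenases, ADH1C, ADH6 and ADH5 were lower in 3D treated. ADH1C, a class I enzyme that oxidises ethanol and retinol, measured 3.31 on both 3D treated arrays, against 8.21 and 7.71 in 3D control. In monolayers it measured 3.31 and 3.35 in 2D treated, against 7.83 and 5.79 in 2D control. Both treated groups thus lay below both control groups, and the value 3.31, the lowest of this probe set, was shared by 3 arrays, so that the size of the difference is not exact. The difference was -4.66 ± 0.71 (SE, n = 2 per group, adjusted p = 0.0283) in spheroids and -3.48 ± 0.71 (n = 2 per group, adjusted p = 0.268) in monolayers. ADH1A, ADH1B and ADH1C are near-identical copies, and cross-hybridisation between them cannot be separated here. ADH1A and ADH1B stayed at 2.23 to 2.41 on all arrays.

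ADH6, a member of the family whose substrates are less well known, measured 6.36 and 6.37 in 3D treated, against 8.77 and 8.42 in 3D control. Its 2D treated arrays read 6.97 and 7.64, against 7.81 and 7.80 in 2D control, so the groups did not overlap in either culture form. The difference was -2.23 ± 0.26 in spheroids (adjusted p = 0.015) and -0.50 ± 0.26 in monolayers (adjusted p = 0.887). ADH5, the class III enzyme that clears formaldehyde bound to glutathione, measured 9.86 and 9.75 in 3D treated, against 10.55 and 10.38 in 3D control, and 10.01 and 10.09 in 2D treated, against 10.40 and 10.14 in 2D control. Its difference in spheroids was -0.66 ± 0.12 (adjusted p = 0.0394). None of the 3 genes passed once 3D control replicate 1 (adjusted p 0.0643 to 0.148), 3D control replicate 2 (0.0501 to 0.102) or 3D treated replicate 2 (0.0525 to 0.136) was left out. ADH1C and ADH5 also missed the threshold without either 2D treated replicate (0.0761 to 0.0928) and without 3D treated replicate 1 (0.0821 to 0.0829).

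ADH4, the class II enzyme, gave unlike readings over its 4 probe sets, of which 2 stayed at 2.23 on all arrays, so its level is uncertain. The probe set with the highest mean lay between 6.51 and 7.17 on all arrays, with a difference of -0.23 ± 0.24 in spheroids (adjusted p = 0.793). Another of its 4 probe sets measured 4.50 and 4.18 in 3D treated and 7.61 and 7.43 in 3D control, a difference of -3.18 ± 0.67 that did not pass (adjusted p = 0.0609). ADH7, an enzyme of the stomach lining that oxidises retinol, stayed at 2.23 to 2.36.

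In RefSeq's annotation of GRCh38.p14, all 7 ADH genes are neighbours on chromosome 4, with no other protein-coding gene between them. The 250 bases before the RefSeq start of the 3 ADH genes that fell in spheroids, and of ALDH1A1 and ALDH5A1, which also fell, are shown because they differ widely in CpG content. Each is written on the strand of its gene, with CpG pairs in capitals. ADH1C lies at chr4:99352747-99352996 on the minus strand, ADH6 at chr4:99219247-99219496 on the minus strand, ADH5 at chr4:99088789-99089038 on the minus strand, ALDH1A1 at chr9:72953054-72953303 on the minus strand and ALDH5A1 at chr6:24494719-24494968 on the plus strand.
ADH1C: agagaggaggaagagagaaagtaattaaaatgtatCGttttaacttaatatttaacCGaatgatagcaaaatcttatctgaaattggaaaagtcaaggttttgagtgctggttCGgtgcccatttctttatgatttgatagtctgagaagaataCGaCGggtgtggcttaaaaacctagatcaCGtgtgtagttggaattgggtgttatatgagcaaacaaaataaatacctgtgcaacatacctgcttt
ADH6: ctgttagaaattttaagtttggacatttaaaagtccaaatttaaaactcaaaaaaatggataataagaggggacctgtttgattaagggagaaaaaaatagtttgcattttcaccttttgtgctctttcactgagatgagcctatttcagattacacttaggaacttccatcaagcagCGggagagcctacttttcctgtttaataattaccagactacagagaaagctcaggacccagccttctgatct
ADH5: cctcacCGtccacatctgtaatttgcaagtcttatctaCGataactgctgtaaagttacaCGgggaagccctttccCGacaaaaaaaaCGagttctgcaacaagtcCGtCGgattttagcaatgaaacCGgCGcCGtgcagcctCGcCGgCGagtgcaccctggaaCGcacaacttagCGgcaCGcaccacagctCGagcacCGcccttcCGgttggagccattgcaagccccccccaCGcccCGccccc
ALDH1A1: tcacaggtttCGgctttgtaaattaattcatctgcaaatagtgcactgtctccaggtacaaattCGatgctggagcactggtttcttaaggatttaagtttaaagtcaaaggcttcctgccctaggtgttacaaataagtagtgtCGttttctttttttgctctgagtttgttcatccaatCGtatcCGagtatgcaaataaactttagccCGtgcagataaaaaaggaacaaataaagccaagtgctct
ALDH5A1: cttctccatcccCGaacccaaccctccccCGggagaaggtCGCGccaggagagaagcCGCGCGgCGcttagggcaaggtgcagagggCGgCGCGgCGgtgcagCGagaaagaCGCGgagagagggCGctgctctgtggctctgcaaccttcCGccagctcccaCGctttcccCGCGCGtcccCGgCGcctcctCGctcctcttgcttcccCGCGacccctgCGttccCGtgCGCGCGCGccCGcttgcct
These windows held 6 CpG pairs in ADH1C, 1 in ADH6, 21 in ADH5, 6 in ALDH1A1 and 33 in ALDH5A1, against a median of 11 over all 35116 RefSeq promoters of the same length. The windows shown were picked for this range, so they do not describe the members that fell as a set. The median was 11 CpG pairs over the 14 promoter entries of members that fell, and 2 over the 19 of other members. Most entries of those other members belong to genes below the low-signal filter, which allow no statement on change. The other members above the filter had entries with 38 (ALDH1A3), 23 (ALDH1B1), 20 and 9 (ALDH1L1), 19 and 2 (ALDH4A1) and 1 (ADH4) CpG pairs. The 2 medians thus do not set members that fell apart from expressed members that did not. In all, 26 members had 33 promoter entries, with ALDH16A1, ALDH1L2, ALDH2, ALDH3A1, ALDH3B2, FMO2, FMO6P and FMO9P without an entry. The letters TGACNNNGC, the core of the antioxidant response element, were searched on both strands and were found in 0 of the 33 windows, against 10.9% of all promoters. The letters TGANTCA, an AP-1 element, were found in 2 of the 33 windows, both of ADH7, against 6.57% of all promoters. These 2 ADH7 windows overlap and hold the same site, so it is 1 match in 1 gene. A match or its lack describes these letters in these windows only.

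Of the 6 FMO genes, FMO5 was the only one above the low-signal filter. FMO5, which in contrast to the drug-oxidising members can insert oxygen next to a carbonyl group, measured 5.02 and 4.54 in 3D treated, against 8.17 and 8.07 in 3D control. In monolayers it measured 6.47 and 5.46 in 2D treated, against 7.64 and 6.84 in 2D control. Treated arrays lay below control arrays in both culture forms, with a difference of -3.34 ± 0.47 (adjusted p = 0.0231) in spheroids and -1.27 ± 0.47 (adjusted p = 0.62) in monolayers. FMO5 no longer passed in spheroids when the fit omitted 3D control replicate 1 (adjusted p = 0.102), 3D control replicate 2 (0.0974), 3D treated replicate 1 (0.0521) or 3D treated replicate 2 (0.0819). FMO1, FMO2, FMO4 and the pseudogenes FMO6P and FMO9P lay between 2.23 and 2.87 on all arrays, near the lowest value.

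The retinal and fatty aldehyde dehydrogenases held 4 of the calls. ALDH1A1, the cytosolic enzyme that turns retinal into retinoic acid, measured 14.02 and 13.75 in 3D treated, against 14.82 and 14.67 in 3D control, a difference of -0.87 ± 0.11 (adjusted p = 0.0204). In monolayers ALDH1A1 measured 15.38 and 15.49 in 2D treated, against 15.57 and 15.64 in 2D control (-0.17 ± 0.11, adjusted p = 0.92). The 4 groups did not overlap, and the order was 3D treated, 3D control, 2D treated, 2D control, of which the last 2 did not pass their test. ALDH1A3, another retinal dehydrogenase, lay between 5.31 and 5.97 on all arrays with overlapping groups (0.15 ± 0.27 in spheroids, adjusted p = 1). ALDH1A2, the third of the retinal dehydrogenases, and its antisense transcript ALDH1A2-AS1 stayed at 2.23 to 2.33.

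ALDH3A1, a cytosolic enzyme for aromatic and medium-chain aldehydes, measured 12.70 and 12.60 in 3D treated, against 14.62 and 14.54 in 3D control. It measured 14.47 and 14.60 in 2D treated, against 14.92 and 15.09 in 2D control. The 3D treated arrays stood apart from the other 6 by at least 1.77 log2 units. The difference was -1.93 ± 0.08 in spheroids (95% confidence interval -2.15 to -1.70, adjusted p = 0.00238) and -0.47 ± 0.08 in monolayers (-0.70 to -0.24, adjusted p = 0.218). ALDH3A2, the fatty aldehyde dehydrogenase of the endoplasmic reticulum, measured 9.95 and 9.67 in 3D treated, against 11.50 and 11.39 in 3D control (-1.64 ± 0.10, adjusted p = 0.00463). Its monolayer values were 11.78 and 11.82 in 2D treated, against 11.93 and 11.94 in 2D control (-0.14 ± 0.10, adjusted p = 0.943). ALDH3B1, an enzyme for lipid-derived aldehydes, measured 10.31 on both 3D treated arrays, against 11.86 and 11.68 in 3D control (-1.46 ± 0.15, adjusted p = 0.0116), and 11.29 and 11.60 in 2D treated, against 11.74 and 11.99 in 2D control (-0.42 ± 0.15, adjusted p = 0.595). Its relative ALDH3B2 stayed at 2.23 to 2.24. The spheroid calls of ALDH3A1 and ALDH3A2 were kept whichever array was left out. ALDH3B1 missed the threshold without 3D control replicate 1 (adjusted p = 0.0525). ALDH1A1 missed it without either 2D control replicate (0.0579), either 2D treated replicate (0.0536), 3D control replicate 1 (0.086) or 3D control replicate 2 (0.0636).

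A further 6 calls in spheroids were among the remaining ALDH genes, most of them in amino acid and related pathways. ALDH16A1 was placed with them as a remaining gene, not for a pathway. ALDH5A1, the succinate semialdehyde dehydrogenase of GABA breakdown, measured 7.23 and 6.84 in 3D treated, against 8.94 and 8.63 in 3D control (-1.75 ± 0.22, adjusted p = 0.0183). Its monolayer values were 9.33 and 9.74 in 2D treated, against 10.05 and 9.92 in 2D control (-0.45 ± 0.22, adjusted p = 0.861). ALDH5A1 thus had its 4 groups in the same order as ALDH1A1, with no overlap. Unlike that of ALDH1A1, its difference between 3D control and 2D control did not pass (-1.19 ± 0.22, adjusted p = 0.0564). ALDH6A1, the mitochondrial methylmalonate semialdehyde dehydrogenase of valine and pyrimidine breakdown, measured 8.38 and 8.54 in 3D treated, against 10.24 and 9.90 in 3D control (-1.61 ± 0.13, adjusted p = 0.00746), and 9.81 and 9.88 in 2D treated, against 10.26 and 10.23 in 2D control (-0.40 ± 0.13, adjusted p = 0.534). ALDH7A1, which acts in lysine breakdown, measured 8.93 and 8.90 in 3D treated, against 10.19 and 10.18 in 3D control (-1.26 ± 0.12, adjusted p = 0.0106), and 9.92 and 10.14 in 2D treated, against 10.59 and 10.31 in 2D control (-0.42 ± 0.12, adjusted p = 0.449). For both genes the 3D treated arrays were at least 0.99 log2 units below every other array.

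ALDH9A1, an enzyme of carnitine synthesis, measured 9.86 and 9.81 in 3D treated, against 10.49 and 10.66 in 3D control (-0.74 ± 0.14, adjusted p = 0.0474), and 10.43 and 10.67 in 2D treated, against 11.0 and 10.71 in 2D control. ALDH18A1, which makes the precursor of proline from glutamate, measured 10.83 and 11.0 in 3D treated, against 11.52 and 11.55 in 3D control (-0.62 ± 0.07, adjusted p = 0.0133), and 11.35 and 11.26 in 2D treated, against 11.42 and 11.40 in 2D control. Its partner in the opposite direction is ALDH4A1, the mitochondrial enzyme that completes proline breakdown to glutamate. ALDH4A1 measured 3.14 and 4.28 in 3D treated, against 5.90 and 5.90 in 3D control, a difference of -2.19 ± 0.46 that did not pass (adjusted p = 0.0601). ALDH4A1 passed under 5 of 16 alternatives and not under the rest. It passed with an intensity trend in the variance (adjusted p = 0.0489) and with array medians subtracted (0.0295). It also passed with the filter on dim probe sets (0.00708) and with 1 probe set per gene (0.0401). The last left out 3D treated replicate 2, where ALDH4A1 differed by -2.76. Its second probe set differed by -0.31 ± 0.09 (adjusted p = 0.13). ALDH16A1 measured 4.13 and 4.80 in 3D treated, against 5.76 and 5.71 in 3D control (-1.27 ± 0.24, adjusted p = 0.0461), and 5.93 and 5.81 in 2D treated, against 6.04 and 6.21 in 2D control. Of the 6 further spheroid calls, only that of ALDH6A1 was kept without 3D control replicate 1 or without 3D control replicate 2. ALDH9A1 and ALDH16A1 ended without any of the 4 monolayer arrays, ALDH5A1 without either 2D control replicate, ALDH9A1 without 3D treated replicate 1 (0.12), and ALDH5A1 and ALDH9A1 without 3D treated replicate 2 (adjusted p 0.0529 to 0.158 over these fits).

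The acetaldehyde and folate enzymes showed no call with the cytokines in the probe set that stood for each gene. ALDH2, the mitochondrial enzyme that oxidises acetaldehyde after alcohol intake, measured 13.02 and 12.94 in 3D treated, against 12.91 on both 3D control arrays. The difference of 0.07 ± 0.07 (adjusted p = 0.748) had a 95% confidence interval of -0.12 to 0.27, so that a fall of the size of ALDH3A1 lay outside it. ALDH1B1, another mitochondrial acetaldehyde dehydrogenase, measured 7.64 and 7.32 in 3D treated, against 8.20 and 7.86 in 3D control (-0.55 ± 0.23, adjusted p = 0.304), and 8.36 and 7.92 in 2D treated, against 7.57 and 7.82 in 2D control (0.44 ± 0.23, adjusted p = 0.914). A dimmer probe set of ALDH1B1 measured 5.19 and 5.56 in 3D treated, against 6.67 and 6.94 in 3D control, and was called lower (-1.43 ± 0.18, adjusted p = 0.0172). ALDH1L2, the mitochondrial formyltetrahydrofolate dehydrogenase, measured 6.97 and 6.73 in 3D treated, against 7.02 and 6.90 in 3D control (-0.11 ± 0.31, adjusted p = 1). Its cytosolic relative ALDH1L1 lay between 3.75 and 4.52 on all arrays (0.29 ± 0.21 in spheroids, adjusted p = 0.555). ALDH1L1-AS2, an antisense transcript, stayed at 2.23 to 2.34, and ALDH8A1 of the kynurenine pathway stayed at 2.24.

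Whether the cytokine difference itself differed between culture forms was tested as the 3D response minus the 2D response. ALDH3A1 (-1.45 ± 0.12, adjusted p = 0.0208) and ALDH3A2 (-1.50 ± 0.15, adjusted p = 0.0286) passed, both with the larger fall in spheroids, and the other 32 members did not. These 2 are 5.88% of the members, against 1.94% of all genes called lower and 1.32% called higher. In RefSeq's annotation ALDH3A1 and ALDH3A2 lie close together on chromosome 17, with 1 protein-coding gene, SLC47A2, between them. The next adjusted p-values were those of ALDH6A1 (-1.22 ± 0.18, adjusted p = 0.0634), ALDH18A1 (-0.51 ± 0.09, adjusted p = 0.0906) and ALDH3B1 (-1.04 ± 0.21, adjusted p = 0.104). For ADH1C the value was -1.18 ± 1.01 (adjusted p = 0.751), so its spheroid and monolayer differences were not told apart. ALDH6A1 passed when 3D control replicate 1 (-1.04, adjusted p = 0.0392) or 3D control replicate 2 (-1.39, adjusted p = 0.022) was left out, and ALDH16A1 (-1.35, adjusted p = 0.0223) and ALDH18A1 (-0.59, adjusted p = 0.0282) passed without 3D treated replicate 2. The call of ALDH3A1 was kept whichever array was left out. The threshold was missed for ALDH3A2 without 2D control replicate 1 (adjusted p = 0.0568), 2D control replicate 2 (0.0686), 2D treated replicate 1 (0.0708), 2D treated replicate 2 (0.0674), 3D control replicate 1 (0.0586) or 3D control replicate 2 (0.0535). In monolayers alone, ADH1C passed when 2D control replicate 1 (-2.46, adjusted p = 0.0437) or 2D control replicate 2 (-4.50, adjusted p = 0.0115) was left out.

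**Figure D2:**
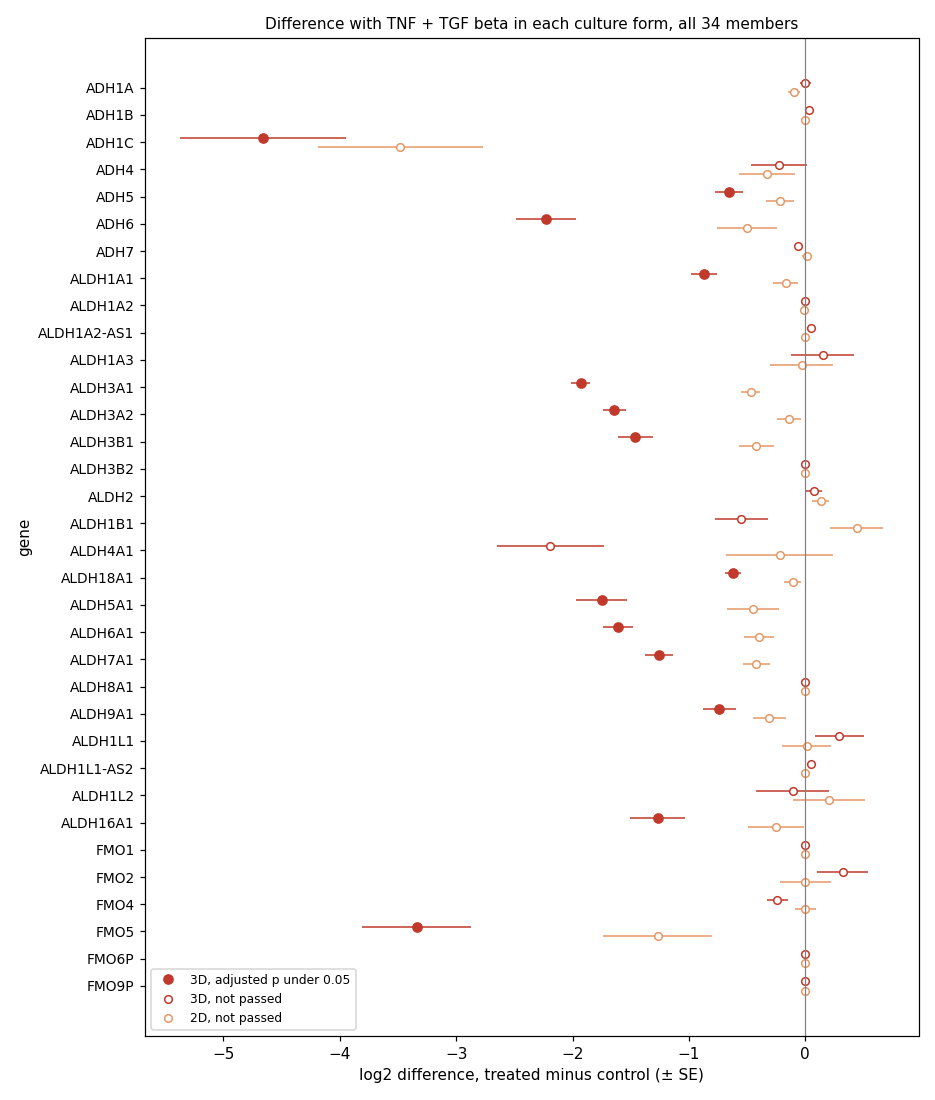
Log2 difference with TNF + TGFβ (treated minus control, horizontal axis, ± SE) for all 34 members in spheroids (red) and monolayers (orange). Filled points passed an adjusted p under 0.05. The 14 filled points all belong to spheroids and lie between -4.66 for ADH1C and -0.62 for ALDH18A1.

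Culture form was compared in both conditions. Without the cytokines, 3 of 34 members were lower in spheroids and none was higher, 8.82% of the members, against 4.9% of all genes called lower and 5.77% called higher. They were ALDH1L2 (-2.28 ± 0.31, adjusted p = 0.0305), ALDH1A1 (-0.86 ± 0.11, adjusted p = 0.0294) and ALDH2 (-0.56 ± 0.07, adjusted p = 0.0278). ALDH1L2 measured 7.02 and 6.90 in 3D control, against 9.54 and 8.93 in 2D control. Without any 1 of the arrays at least 1 of the 3 calls ended: all 3 ended without either 2D treated replicate (adjusted p 0.0505 to 0.0702), without 3D control replicate 1 (0.0735 to 0.1) or without 3D control replicate 2 (0.11 to 0.122). ALDH1A1 and ALDH1L2 ended without 2D control replicate 1 (0.0811 and 0.072) or 2D control replicate 2 (0.113 and 0.0547), and ALDH1L2 and ALDH2 without either 3D treated replicate (0.0656 to 0.073). Nearest the threshold without passing were ALDH5A1 (-1.19 ± 0.22, adjusted p = 0.0564) and ALDH3A1 (-0.43 ± 0.08, adjusted p = 0.0653). ALDH5A1 passed under 5 of 16 alternatives and ALDH3A1 under 3 of 16. ADH6 (0.79 ± 0.26, adjusted p = 0.191) and FMO5 (0.88 ± 0.47, adjusted p = 0.488) had positive differences that did not pass. ADH1C (1.15 ± 0.71, adjusted p = 0.591) passed without 2D control replicate 1 (2.17, adjusted p = 0.0356), and ALDH3A2 (-0.49 ± 0.10, adjusted p = 0.0726) passed without either 3D treated replicate (adjusted p = 0.039).

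With the cytokines, 13 of 34 members were lower in spheroids, all of them ALDH genes, and none was higher. This is 38.2% of the members, against 14.5% of all genes called lower and 9.06% called higher. This comparison shares its arrays with those above. ALDH1L2 measured 6.97 and 6.73 in 3D treated, against 9.12 and 9.74 in 2D treated (-2.58 ± 0.31, adjusted p = 0.0115), and the shift of this culture difference with the cytokines was -0.30 ± 0.44 (adjusted p = 0.903). ALDH2, at 13.02 and 12.94 in 3D treated against 13.58 and 13.62 in 2D treated (-0.62 ± 0.07, adjusted p = 0.0109), was likewise set apart by culture form in both conditions. ALDH5A1 (-2.50 ± 0.22, adjusted p = 0.00619), ALDH4A1 (-2.35 ± 0.46, adjusted p = 0.0382), ALDH3A2 (-1.99 ± 0.10, adjusted p = 0.00245) and ALDH3A1 (-1.88 ± 0.08, adjusted p = 0.00196) had the next differences in size, followed by ALDH1A1 (-1.55 ± 0.11, adjusted p = 0.00453). The other 6, ALDH16A1, ALDH6A1, ALDH3B1, ALDH7A1, ALDH9A1 and ALDH18A1, differed by -0.39 to -1.41. The count was 7 without 2D treated replicate 2, where ALDH16A1, ALDH18A1, ALDH2, ALDH3B1, ALDH4A1 and ALDH9A1 ended (adjusted p 0.0502 to 0.165). Between 9 and 11 members were called lower without any other array, with ALDH16A1, ALDH18A1, ALDH4A1 and ALDH9A1 ending without 2D treated replicate 1 (0.0724 to 0.118), either 2D control replicate (0.0504 to 0.0711) or either 3D control replicate (0.0751 to 0.0981). ALDH4A1 and ALDH9A1 ended without 3D treated replicate 1 (0.0572 to 0.11), and ALDH3B1 and ALDH9A1 without 3D treated replicate 2 (0.0585 and 0.145). ALDH1L1 (0.37 ± 0.21, adjusted p = 0.478) was called higher without 3D treated replicate 1 (0.66, adjusted p = 0.0402), a fit with 1 array left in 3D treated, as were the near-background ADH1B (0.06) and FMO2 (0.64). ALDH1A2-AS1 (0.10) and ALDH1L1-AS2 (0.11), likewise near background, were called higher without 3D treated replicate 2. No ADH or FMO gene passed: ADH6 differed by -0.94 ± 0.26 (adjusted p = 0.0902) and passed without 2D treated replicate 1 (-1.28, adjusted p = 0.0346), and FMO5 differed by -1.19 ± 0.47 (adjusted p = 0.226).

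**Figure D3:**
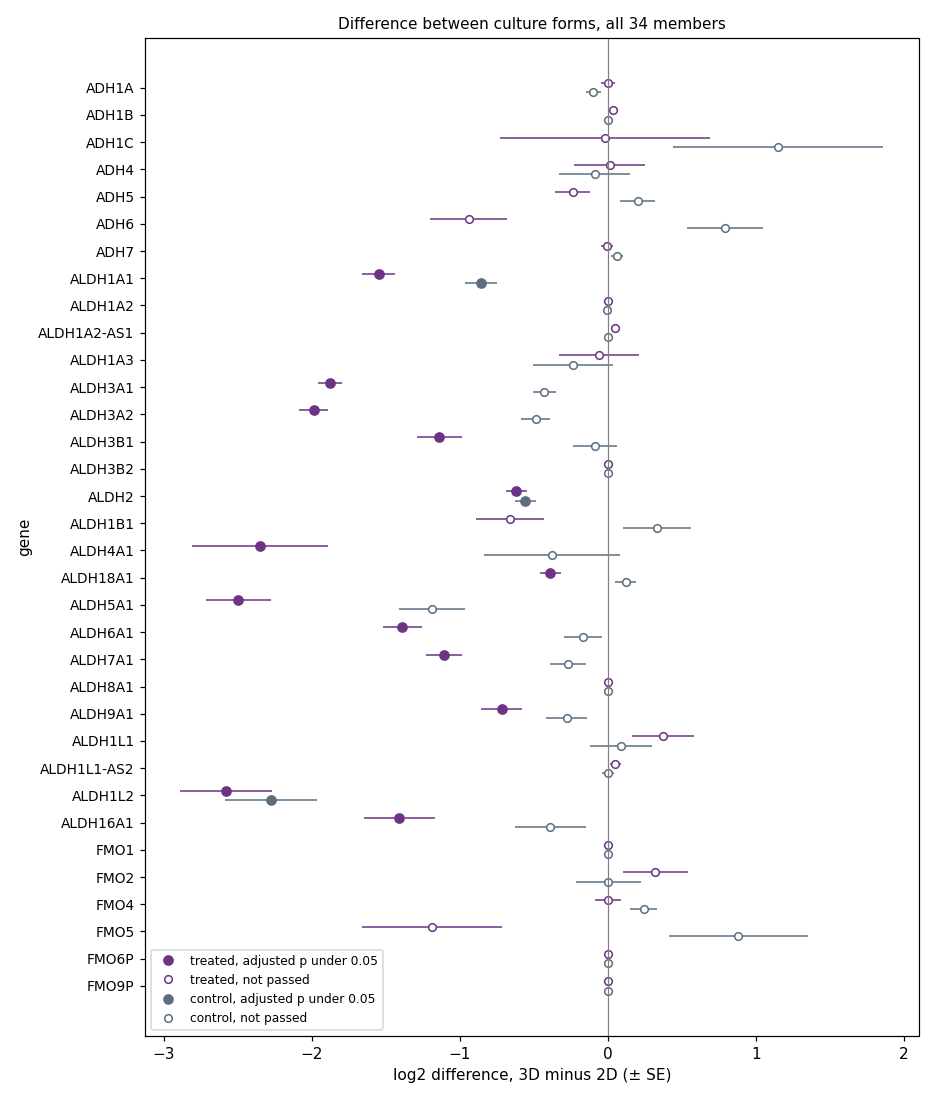
Log2 difference between culture forms (3D minus 2D, horizontal axis, ± SE) for all 34 members in treated cells (purple) and control cells (grey). Filled points passed an adjusted p under 0.05. ALDH1L2 and ALDH2 have nearly the same value in both conditions, -2.58 and -2.28 for ALDH1L2 and -0.62 and -0.56 for ALDH2, while ADH1C reads -0.02 in treated and 1.15 in control cells.

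In all, 11 members had more than 1 probe set above the low-signal filter, which allowed a second look at the spheroid difference with other probes on the same arrays. Every one of these probe sets had a difference below 0. All 3 probe sets of ALDH3A2 were called lower (-1.64 to -2.08), as were 4 of ALDH6A1 (-1.48 to -2.49), 2 of ADH6 (-2.23 and -2.42), 2 of ADH5 (-0.66 and -0.98), 2 of ALDH3B1 (-1.06 and -1.46) and 2 of FMO5 (-2.98 and -3.34). For ALDH7A1, 2 of 3 were called, and for ALDH18A1, 1 of 2. Of the probe sets of ALDH1B1, the dimmer one passed and the brighter one did not, as given above. ADH4 and ALDH4A1 had the widest gaps, described above. Probe sets of 1 gene share the RNA of each array and are not replicates.

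**Figure D4:**
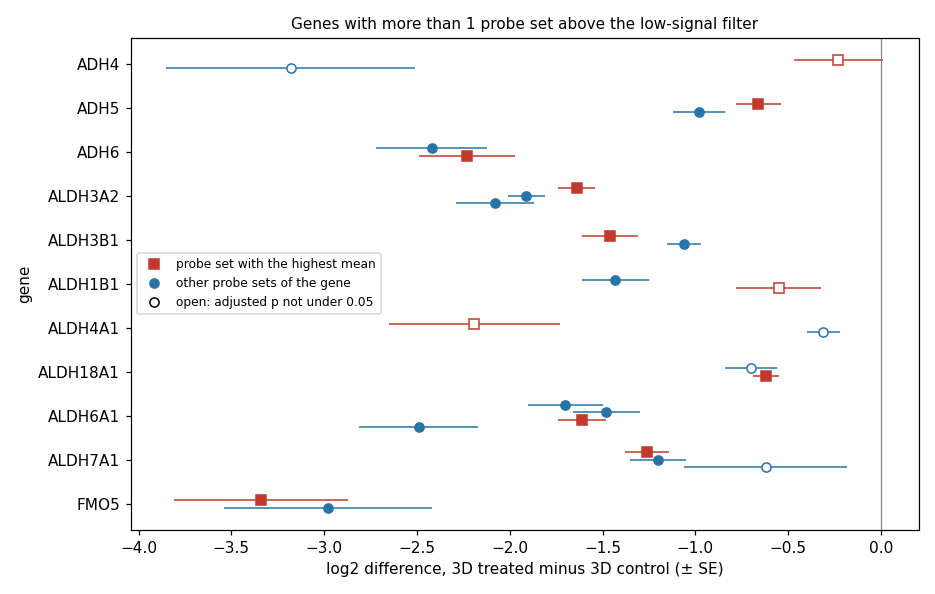
Log2 difference in spheroids (3D treated minus 3D control, horizontal axis, ± SE) for each probe set of the 11 members with more than 1 above the low-signal filter. Squares mark the probe set that stood for the gene, circles the others, and open symbols an adjusted p not under 0.05. The 2 probe sets of ADH4 above the filter lie at -0.23 and -3.18, whereas the 3 of ALDH3A2 lie between -1.64 and -2.08.

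Enzymes that share substrates with the members were described from 6 lists. Of 9 measured aldo-keto reductases, which reduce aldehydes and ketones, 7 fell in spheroids with the cytokines and none rose (median -0.75, against 0 over all genes). The 7 are 77.8% of the list, against 10.8% of all genes called lower and 5.53% called higher, the shares to read the other lists against. AKR1C4, an enzyme of steroid and bile acid metabolism, averaged 5.21 in 3D treated and 8.61 in 3D control (-3.40 ± 0.22, adjusted p = 0.00468), AKR7A2 averaged 8.56 in 3D treated and 9.57 in 3D control (-1.01 ± 0.16, adjusted p = 0.0306) and AKR1B10, which reduces retinal and other aldehydes, averaged 13.95 in 3D treated and 14.90 in 3D control (-0.95 ± 0.04, adjusted p = 0.00213). AKR1C genes are close copies of each other, so the AKR1C4 value is uncertain. AKR1C1, AKR1C2 and AKR1C3 were also among the 7, so the calls and their share may not stand for 7 separate genes. The AKR7A2 call ended without either 2D treated replicate, either 3D control replicate or 3D treated replicate 2 (adjusted p up to 0.13), and the other 2 calls were kept. In monolayers AKR1C4 averaged 7.88 in 2D treated and 8.06 in 2D control.

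Of 26 genes of retinoid metabolism and retinoid receptors, 2 fell and 1 rose in spheroids (median -0.02). These are 7.69% lower and 3.85% higher, both under the shares of all genes (10.8% and 5.53%), so the list did not stand out and its called genes are given as single values. BCO1, which cleaves carotene to retinal, averaged 5.09 in 3D treated and 7.55 in 3D control (-2.47 ± 0.32, adjusted p = 0.0198), and RDH10, which oxidises retinol to retinal, averaged 10.90 in 3D treated and 11.95 in 3D control (-1.06 ± 0.11, adjusted p = 0.0119). DHRS3, which works in the reverse direction and reduces retinal, averaged 11.40 in 3D treated and 9.93 in 3D control (1.47 ± 0.20, adjusted p = 0.021). In 2D treated and 2D control DHRS3 averaged 9.93 and 9.18 (0.74 ± 0.20, adjusted p = 0.395). RDH10 no longer passed without 3D control replicate 1 (adjusted p = 0.0565), nor did BCO1 without either 3D control replicate, or DHRS3 without either replicate of 2D control, 3D control or 3D treated (adjusted p up to 0.0894 and 0.0884).

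Of 14 amine and flavin oxidases and reductases, 3 fell (21.4%, against 10.8% of all genes) and 1 rose (7.14%, against 5.53%) in spheroids (median -0.01). NQO1, a quinone reductase, averaged 12.52 in 3D treated and 14.34 in 3D control (-1.82 ± 0.12, adjusted p = 0.00486). POR, the reductase that feeds electrons to cytochrome P450 enzymes, averaged 8.92 in 3D treated and 10.24 in 3D control (-1.32 ± 0.07, adjusted p = 0.00341). SMOX, which oxidises spermine, averaged 11.11 in 3D treated and 9.51 in 3D control (1.60 ± 0.07, adjusted p = 0.00233). These 3 calls were kept whichever array was left out. Of 8 ethanol, acetaldehyde and polyol enzymes 2 fell, against 10.8% of all genes, with no gene higher (median -0.13). The 2 were catalase (CAT, -1.55 ± 0.15, adjusted p = 0.0107) and ADHFE1 (-1.07 ± 0.13, adjusted p = 0.0174). CAT no longer passed without 3D control replicate 2 (adjusted p = 0.053), and the ADHFE1 call without either replicate of 2D treated, 3D control or 3D treated (up to 0.0758).

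Of 24 measured partners of the ALDH enzymes in proline, GABA, lysine, carnitine and valine metabolism, 7 fell (29.2%, against 10.8% of all genes) and 1 rose (4.17%, against 5.53%) in spheroids (median -0.27). BCKDHB, a subunit of the branched-chain keto acid dehydrogenase that acts upstream of ALDH6A1, averaged 5.66 in 3D treated and 7.71 in 3D control (-2.05 ± 0.19, adjusted p = 0.00932). PRODH2, which oxidises hydroxyproline, averaged 6.51 in 3D treated and 7.97 in 3D control (-1.47 ± 0.13, adjusted p = 0.00955). GAD1, which makes the GABA that ALDH5A1 helps to degrade, averaged 5.48 in 3D treated and 3.44 in 3D control (2.04 ± 0.35, adjusted p = 0.0368), while its means in 2D treated and 2D control were 2.49 and 2.43. The GAD1 call ended without any 1 of 7 arrays, the exception being 3D control replicate 2 (adjusted p up to 0.125). Of 10 folate enzymes 1 fell and 1 rose, 10.0% in each direction, against 10.8% and 5.53% of all genes, with a median of -0.03. MTHFD1, which supplies formyltetrahydrofolate, averaged 9.61 in 3D treated and 10.45 in 3D control (-0.84 ± 0.06, adjusted p = 0.00669), and GGH, which trims folate side chains, averaged 12.29 in 3D treated and 10.81 in 3D control (1.48 ± 0.13, adjusted p = 0.00843). GGH averaged 12.08 in 2D treated and 10.76 in 2D control, a difference of 1.32 ± 0.13 that did not pass (adjusted p = 0.0866).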

How the data were processed

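RNA of A549 spheroids and monolayers, with or without TNF + TGFβ, was measured on 8 Affymetrix U133 arrays, 2 in each of 4 groups. The authors deposited log2 values per probe set after GCRMA, which corrects background by probe sequence, normalizes between arrays and pulls dim signals to a shared floor, so differences of dim genes are compressed. The submitters' processing notes also name limma 3.6.9. Here limma 3.58.1 in R 4.3.3 fitted the 4 group means to all 8 arrays (lmFit, eBayes), with p-values adjusted by Benjamini-Hochberg over 54613 probe sets (62 control probe sets left out) at a threshold of 0.05. SE is the moderated standard error. Names came from the platform annotation (41091 probe sets with 1 symbol, 1801 with several and 11721 with none, the last 2 kinds named nowhere), and all 34 symbols matched RefSeq (GRCh38.p14), the source of the promoters. All members were accounted for, with array values for those called in at least 1 of 5 comparisons, and each partner list gave up to 3 called genes with the largest spheroid difference. Second probe sets, ALDH1B1, near-threshold members and the CpG counts were singled out after their values were seen. Members and lists were chosen with earlier results of these data known. The fit was also run on simulated data with normal noise and no signal floor, which gives no check of calls near the floor. Alternatives changed 1 choice at a time: variance trend, between-array scaling, low-signal filter, probe set choice, arrays fitted, replicate block, and each array left out. Deviations of same-numbered arrays correlated at r = 0.30 between the monolayer groups and from -0.013 to 0.097 otherwise (23713 bright probe sets). The labels do not pair the arrays, so the numbers were not taken as pairs in the main fit. A deviation shared by same-numbered monolayer arrays was allowed for only in the replicate block alternative. Scan batches are not given in the sources used here.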

Additional observations from a re-analysis of the deposited data

Results flagged for a closer look

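The response to TNF + TGFβ differed between culture forms for 2 members by the test of the difference itself. Such calls were not limited to the members. Of 9 aldo-keto reductases, 2 were called lower (22.2%). Of 14 amine and flavin enzymes, 3 were called lower (21.4%) and 1 higher (7.14%). The shares of all genes were 1.94% lower and 1.32% higher. Among 24 partners of the ALDH enzymes 1 was called lower (4.17%), and the retinoid, ethanol and folate lists held no call. ALDH3A1 had a difference of -1.93 in spheroids and -0.47 in monolayers, which gives -1.45 ± 0.12 (limma, adjusted p = 0.0208). ALDH3A2 had -1.64 in spheroids and -0.14 in monolayers, which gives -1.50 ± 0.15 (adjusted p = 0.0286). Both 3D treated arrays lay below all other 6 arrays for each gene. The summed level of the 10 epithelial keratin and junction genes, mostly KRT18 and KRT8, was also lowest in 3D treated, where 5 of the 10 were called lower than in 3D control, 1 (CLDN4) was called higher and 4 did not pass, and its part in these values was not tested.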

How the results depend on the processing

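No called difference of a member reversed under the alternatives run, but counts of calls did move. In spheroids the 14 members called became 8 with the replicate block and 2 with only the 4 arrays compared (ALDH3A1 and ALDH7A1 kept), and 4 to 12 when 1 array was left out (4 to 10 lower, and up to 2 near-background members higher). In monolayers 0 were called under each alternative except when 1 array was left out (0 to 2). Between culture forms without cytokines the 3 calls became 5 after quantile normalization, 5 after subtraction of array medians, 7 with the filter on dim probe sets, 5 with 1 probe set per gene, 5 with the probe set of largest change, 0 with the replicate block, 0 with only 4 arrays, and 0 to 3 when 1 array was left out. With cytokines the 13 calls became 0 with only 4 arrays and 7 to 14 when 1 array was left out (7 to 11 lower, up to 3 higher). For the difference of the responses the 2 calls became 5 after subtraction of array medians, 8 with the filter, 0 with the replicate block, 1 with the probe set of largest change, and 1 to 6 when 1 array was left out. The 4-array fit estimates its spread from fewer arrays, and the filter tests fewer probe sets. The cause of the other shifts was not tested. The same numbers do not pair the samples by the labels, so whether a call lost with the replicate block is a weaker effect cannot be told. Members near the floor, such as FMO4, FMO2, ADH1A, ADH1B and ADH7, were called in some fits without 1 array, in which 1 array stood alone in its group and its spread was taken from the rest. With 2 arrays per group and a signal floor of 2.23, the 13 members below the filter allow no statement on change.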
